A study of Mus musculus with 2 samples.

Results

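Mitosis and chromosome segregation genes were read in cultured mouse hepatocytes: 46 genes of G2 and M phase, chosen by gene symbol for their known function, out of 14339 named genes in the expression table. All 46 had a row, and 42 had a mean level of at least 1 FPKM (fragments mapped to a gene, scaled to transcript length and to sequencing depth) over both libraries, as did 11087 of all genes. Poly-A RNA was sequenced from primary hepatocytes of mouse liver, cultured and treated with siRNA against ClpP, a protease of the mitochondrial matrix, or, as the control, with siRNA against the jellyfish protein GFP. Each group held 1 library, so the comparison asks which genes differed between these libraries and carries no test, p-value or error. The sources used here do not give the strain, genotype, sex, age or number of mice, the siRNA sequence and dose, or when cells were harvested.

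A cell enters mitosis when the kinase CDK1, bound to cyclin B, becomes active. The chromosomes condense, kinetochores fasten them to the spindle, and a checkpoint holds anaphase back until every chromosome is attached. The anaphase-promoting complex then marks cyclin B and securin for destruction, and the cell divides in cytokinesis. Most of these genes are silent in resting cells and are switched on together late in the cycle by the MuvB complex with B-MYB and FOXM1, which act at a short promoter element called the CHR, often beside CCAAT boxes that bind NF-Y. Adult hepatocytes are mostly quiescent and often polyploid, and they re-enter the cycle after loss of liver tissue.

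Clpp, the targeted gene, had 45.1 FPKM in the control and 9.32 after ClpP siRNA (control values always come first). Read depth is unknown, since the values carry no counts.

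The mitosis genes were low in the GFP siRNA library and higher in the ClpP siRNA library. With GFP siRNA, 13 of the 46 lay below 1 FPKM, 29 from 1 to below 5 FPKM and only 4 at 5 FPKM or more, whereas with ClpP siRNA 1 lay below 1 FPKM and 29 reached 5 FPKM. All 46 were higher with ClpP siRNA. The difference is given as the log2 ratio, log2(FPKM + 1) with ClpP siRNA minus log2(FPKM + 1) with GFP siRNA. This ratio understates the change of genes at low FPKM. Whether a gene is past 2-fold is read from it unless stated otherwise. On this scale Clpp had -2.16. Among the 42 genes of mean FPKM of at least 1, 31 were at least 2-fold higher, where 5.19% of all genes were, and 0 were at least 2-fold lower, where 2.04% of all genes were. The median log2 ratio was 1.30, against -0.01 for all genes. All 42 lay above 0, against 49.3% of all genes, and 2, Ccnb2 and Birc5, were at least 4-fold higher, against 1.43%. In bulk RNA, more cells in mitosis and more mitotic RNA per cell cannot be told apart.

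A gene that is scarce in one library can pass a filter on the mean only through the other. Of the 42 genes, 9 lay below 1 FPKM with GFP siRNA and passed through the ClpP siRNA library. Filtering on the GFP siRNA library alone kept 33 of the genes, of which 24 were at least 2-fold higher, where 4.04% of all genes so filtered were, with a median of 1.39. The count also depended on the added constant. With 5 FPKM added in place of 1, the count at least 2-fold higher was 6 of the 42, with a median of 0.61, while 35 of the 42 had a plain FPKM ratio of at least 2, where 6.76% of all genes did. In the authors' deposited table, whose folds come from quantile-normalized values, 30 of the 42 had a fold of at least 2, where 4.83% of all genes did.

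**Figure D1:**
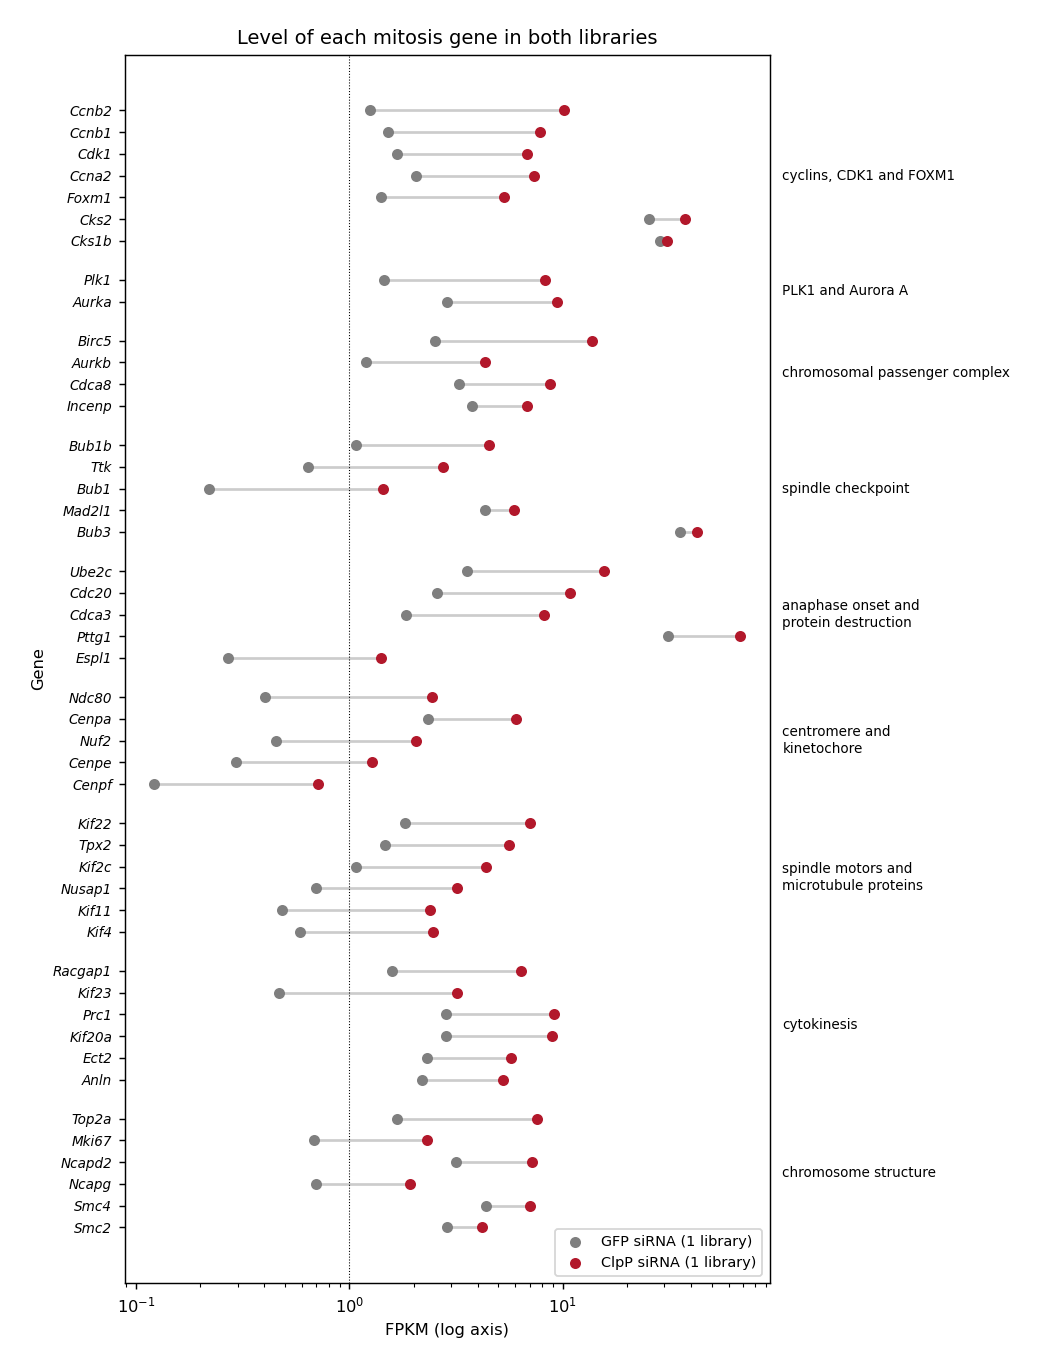
FPKM of each of the 46 mitosis genes (log axis) in the GFP siRNA library (grey) and the ClpP siRNA library (red), 1 library each, grouped by role, with a dotted line at 1 FPKM. Every red point lies to the right of its grey point, and Bub3, Cks1b, Cks2 and Pttg1 stand apart as the 4 genes above 5 FPKM with GFP siRNA.

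Promoter stretches are shown for the 6 genes with the highest log2 ratios (Ccnb2, Birc5, Plk1, Ube2c, Ccnb1 and Cdc20) and for Cks2 and Cks1b, a pair of close relatives with low ratios, so that the motifs can be set beside the values. They come from RefSeq (build GRCm38.p6) and run from 150 bases before to 30 bases after the annotated start, 5′ to 3′ along the gene. Capitals mark TTTGAA, the core letters of the CHR element, which reads TTCAAA on the opposite strand. They also mark CCAAT, the box bound by NF-Y, which on the opposite strand reads ATTGG. Only exact matches to these letters were searched, so a CHR element written in other letters would be missed. The stretches lie at chr9:70421525-70421704 on the minus strand (Ccnb2), chr11:117849087-117849266 on the plus strand (Birc5), chr7:122159285-122159464 on the plus strand (Plk1), chr2:164769779-164769958 on the plus strand (Ube2c), chr13:100786457-100786636 on the minus strand (Ccnb1), chr4:118437314-118437493 on the minus strand (Cdc20), chr13:51645082-51645261 on the plus strand (Cks2) and chr3:89418262-89418441 on the minus strand (Cks1b).
Ccnb2: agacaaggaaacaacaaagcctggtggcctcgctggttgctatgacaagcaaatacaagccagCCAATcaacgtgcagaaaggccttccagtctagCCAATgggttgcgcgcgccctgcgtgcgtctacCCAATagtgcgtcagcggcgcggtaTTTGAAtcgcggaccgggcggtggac
Birc5: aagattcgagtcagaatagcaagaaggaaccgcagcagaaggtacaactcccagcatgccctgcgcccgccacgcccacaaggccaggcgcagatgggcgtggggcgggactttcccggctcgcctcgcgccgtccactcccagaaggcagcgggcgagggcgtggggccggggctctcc
Plk1: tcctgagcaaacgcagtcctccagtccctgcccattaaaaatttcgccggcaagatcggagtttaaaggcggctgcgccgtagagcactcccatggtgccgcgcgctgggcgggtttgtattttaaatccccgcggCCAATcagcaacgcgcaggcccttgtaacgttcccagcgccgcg
Ube2c: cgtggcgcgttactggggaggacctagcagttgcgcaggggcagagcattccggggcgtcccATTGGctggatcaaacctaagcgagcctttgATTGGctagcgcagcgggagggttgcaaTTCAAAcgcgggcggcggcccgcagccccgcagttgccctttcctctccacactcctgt
Ccnb1: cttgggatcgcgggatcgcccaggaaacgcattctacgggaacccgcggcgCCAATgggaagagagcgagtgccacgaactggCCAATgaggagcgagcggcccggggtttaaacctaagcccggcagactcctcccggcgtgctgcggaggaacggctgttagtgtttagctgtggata
Cdc20: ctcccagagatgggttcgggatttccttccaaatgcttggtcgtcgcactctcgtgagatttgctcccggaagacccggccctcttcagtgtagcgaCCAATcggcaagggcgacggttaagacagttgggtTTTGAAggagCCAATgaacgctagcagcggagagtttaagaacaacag
Cks2: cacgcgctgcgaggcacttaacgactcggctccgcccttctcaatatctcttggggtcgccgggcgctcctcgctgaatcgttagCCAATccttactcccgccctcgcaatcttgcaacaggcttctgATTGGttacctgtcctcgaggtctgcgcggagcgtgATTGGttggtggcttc
Cks1b: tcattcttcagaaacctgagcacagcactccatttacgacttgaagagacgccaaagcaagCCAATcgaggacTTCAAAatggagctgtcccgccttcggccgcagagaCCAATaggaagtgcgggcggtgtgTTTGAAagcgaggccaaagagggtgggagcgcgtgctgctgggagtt
Ccnb2 holds 3 CCAAT boxes on its own strand and 1 CHR core just after the start. Ube2c holds 2 CCAAT boxes and 1 CHR core, all on the opposite strand, and Cdc20 has its CHR core between 2 CCAAT boxes. Ccnb1 holds 2 CCAAT boxes and no exact TTTGAA, and Plk1 holds 1 CCAAT box, with TTTGAA just past the stretch shown. Birc5 holds neither motif, here or in its full window. Presence of the exact letters TTTGAA did not follow the ratio among these 8 genes: Cks1b, with the lowest log2 ratio of all (0.11), holds 2 matches.

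Over the full RefSeq windows of 300 bases (250 before to 50 after a start), 39 of the 46 genes had 42 windows. Ccna2, Tpx2, Foxm1, Kif20a, Aurkb, Incenp and Smc4 were not matched. Searching both strands for TTTGAA found it in 33 of the 42 windows (78.6%), against 17.9% of all 32851 RefSeq windows and 12.4% of the windows of genes in the expression table. CCAAT was in 34 windows (81.0%), against 37.4% of all windows, and both motifs were in 30 (71.4%), against 6.95%. The motifs were searched separately and shared bases in 1 window. In the windows of G1/S and DNA replication genes the shares were 14.0% for TTTGAA, 54.0% for CCAAT and 6% for both. Among mitosis genes the CHR core was in 23 of 28 windows of genes at least 2-fold higher, in 8 of 10 windows of genes that passed the filter and were not past 2-fold, and in 2 of 4 windows of genes below the filter. The median position of the first base was 17 bases before the start for TTTGAA and 71 bases before it for CCAAT. Ccnb2, Ube2c and Ccnb1 each hold a pair of CCAAT boxes on 1 strand whose first bases lie 31 to 33 bases apart. That spacing was taken from these sequences, so no share of windows is read from it. These are letter matches, and no binding was measured.

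**Figure D2:**
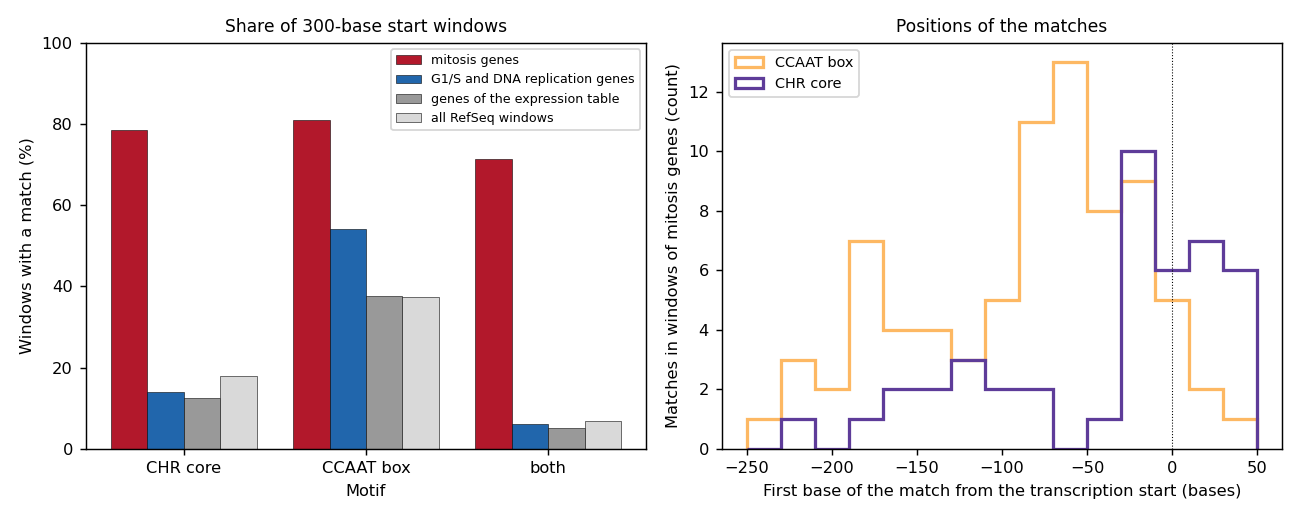
Left: share of 300-base start windows (%) holding the CHR core, a CCAAT box or both, for 42 windows of mitosis genes, 50 of G1/S and DNA replication genes, 14385 of genes in the expression table and all 32851 RefSeq windows. Right: number of matches in the mitosis gene windows by distance from the transcription start (bases, bins of 20), with CHR cores gathered nearer the start than CCAAT boxes.

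The cyclins and CDK1, which drive entry into mitosis, were among the genes with the largest ratios, while their small partner proteins had ratios short of 2-fold. Ccnb2, a B-type cyclin, had 1.26 FPKM in the control and 10.1 after ClpP siRNA, and its log2 ratio of 2.30 was the highest of the set. Ccnb1, the essential B-type cyclin, had 1.52 and 7.83 FPKM, with a log2 ratio, given in brackets from here on, of 1.81. Cdk1, the kinase that both activate, had 1.67 and 6.84 FPKM (1.55). Ccna2, the cyclin of S and G2 phase, had 2.05 and 7.37 FPKM (1.46). Foxm1, the transcription factor that drives many genes of this set, had 1.41 and 5.30 FPKM (1.39). These 5 were all at least 2-fold higher. Cks2 and Cks1b, adaptor proteins that bind cyclin-dependent kinases, were abundant in both libraries. Cks2 had 25.4 and 37.5 FPKM (0.55), and Cks1b had 28.7 and 31 FPKM (0.11), the smallest ratio of the set. Cks2 lay above the 84th percentile of genes of its own level, and Cks1b lay within their spread.

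The mitotic kinases PLK1 and Aurora A were both at least 2-fold higher. Plk1, which acts at centrosomes, kinetochores and the midbody, had 1.45 FPKM in the control and 8.29 after ClpP siRNA (log2 ratio 1.92). Aurka, which matures centrosomes and builds the spindle, had 2.88 and 9.37 FPKM (1.42).

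Of the chromosomal passenger complex, which corrects faulty attachments at centromeres and later moves to the spindle midzone, 3 of 4 subunits were at least 2-fold higher. Birc5 (survivin), the subunit that docks on histone H3, had 2.53 and 13.7 FPKM, a log2 ratio of 2.06. Its enzyme Aurkb (Aurora B) had 1.19 and 4.32 FPKM (1.28). Cdca8 (borealin) had 3.27 and 8.72 FPKM (1.18). Incenp, the scaffold that holds the complex together, had 3.75 and 6.83 FPKM (0.72), short of 2-fold. Ratios of the subunits spanned 0.72 to 2.06.

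Spindle checkpoint genes differed widely in their ratios. Bub1b (BubR1), part of the inhibitor of CDC20, had 1.08 and 4.50 FPKM, a log2 ratio of 1.40. Ttk (MPS1), the kinase that starts the signal, had 0.643 and 2.74 FPKM (1.19). Mad2l1 and Bub3 also belong to the checkpoint inhibitor, and neither came near 2-fold. Mad2l1 had 4.31 and 5.91 FPKM (0.38), and Bub3, the most abundant gene of the set with GFP siRNA, had 35.3 and 42.8 FPKM (0.27). Both lay within the spread of genes of like level. Bub1, a kinase of the outer kinetochore, had 0.221 and 1.44 FPKM with a mean below 1.

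Genes of anaphase onset and protein destruction with a mean of at least 1 FPKM were all at least 2-fold higher. Ube2c, the ubiquitin-conjugating enzyme of the anaphase-promoting complex, had 3.56 FPKM in the control and 15.7 after ClpP siRNA, a log2 ratio of 1.87. Cdc20, the activator of that complex and the target of the checkpoint, had 2.58 and 10.8 FPKM (1.73). Cdca3, a regulator of mitotic entry, had 1.85 and 8.21 FPKM (1.69). Pttg1 (securin), which restrains separase until anaphase, was the most abundant gene of the set with ClpP siRNA. It had 31.1 and 68.0 FPKM (1.10), and it was the 1 gene of the 4 with a mean of at least 10 FPKM that was past 2-fold. Espl1 (separase), the protease that cuts cohesin, had 0.269 and 1.41 FPKM, with a mean below 1.

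Of the 5 centromere and kinetochore genes, 3 had a mean of at least 1 FPKM, and all 3 were at least 2-fold higher. Cenpa, the histone H3 variant that marks centromeres, had 2.33 and 6.03 FPKM, a log2 ratio of 1.08. Ndc80 and Nuf2 form a coiled-coil dimer that grips microtubules, and their values were alike. Ndc80 had 0.401 and 2.44 FPKM (1.30), and Nuf2 had 0.456 and 2.05 FPKM (1.07), so both lay below 1 FPKM with GFP siRNA. Cenpe, a kinesin of the kinetochore, had 0.295 and 1.27 FPKM. Cenpf, a large coiled-coil protein of the outer kinetochore, had 0.122 and 0.713 FPKM, the lowest levels of the set in both libraries.

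The 6 spindle motors and microtubule proteins were all at least 2-fold higher. Kif22, a chromosome-arm kinesin, had 1.83 FPKM in the control and 7.01 after ClpP siRNA (log2 ratio 1.502). Tpx2, the activator of Aurora A on the spindle, had 1.47 and 5.60 FPKM (1.42). Kif2c (MCAK), which takes microtubules apart at centromeres, had 1.07 and 4.36 FPKM (1.37). The other 3 lay below 1 FPKM with GFP siRNA. Nusap1, a microtubule bundling protein, had 0.695 and 3.19 FPKM (1.30), Kif11 (Eg5), the motor that pushes spindle poles apart, had 0.484 and 2.39 FPKM (1.19), and Kif4, a chromokinesin, had 0.585 and 2.46 FPKM (1.12).

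Among 6 cytokinesis genes, 5 were at least 2-fold higher. Racgap1 and Kif23 make up centralspindlin, the complex that organises the spindle midzone. Racgap1 had 1.59 and 6.41 FPKM (log2 ratio 1.52), and Kif23 had 0.471 and 3.19 FPKM (1.51). Their plain FPKM ratios were unlike, at 4.04 for Racgap1 and 6.78 for Kif23. Their log2 ratios were alike because the added 1 FPKM shrinks the ratio of a scarcer gene more. Prc1, which bundles antiparallel microtubules there, had 2.83 and 9.07 FPKM (1.40). Kif20a, a midzone kinesin, had 2.84 and 8.92 FPKM (1.37). Ect2, the exchange factor that activates RhoA, and Anln (anillin), the scaffold of the contractile ring, lay on either side of the limit. Ect2 had 2.32 and 5.70 FPKM (1.01), and it was short of 2-fold after quantile normalization, at 0.97. Anln had 2.18 and 5.27 FPKM (0.98), a plain FPKM ratio of 2.42.

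Of 6 genes of chromosome structure, 1 was at least 2-fold higher by the log2 ratio. Top2a, the topoisomerase that untangles DNA, had 1.68 and 7.57 FPKM, a log2 ratio of 1.68. Condensin genes had smaller ratios. Ncapd2 had 3.15 and 7.18 FPKM (0.98), and Ncapg had 0.695 and 1.93 FPKM (0.79). Smc4 had 4.36 and 7.07 FPKM (0.59) and Smc2 had 2.86 and 4.17 FPKM (0.42). As plain FPKM ratios these were 2.28 for Ncapd2, 2.77 for Ncapg, 1.62 for Smc4 and 1.46 for Smc2. Smc2 and Smc4 form the core of both condensins and are also used outside condensin I, to which Ncapd2 and Ncapg belong. Mki67, the proliferation antigen Ki-67 that coats mitotic chromosomes, had 0.683 and 2.32 FPKM (0.98). Its log2 ratio was just short of 2-fold, while its plain FPKM ratio was 3.39.

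**Figure D3:**
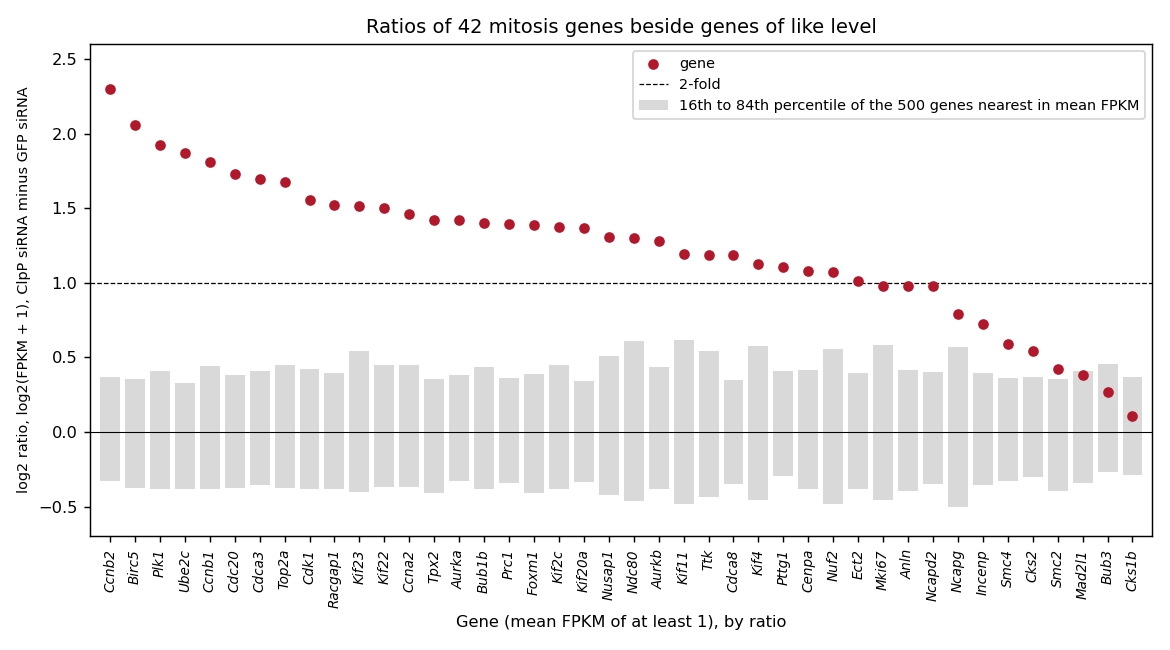
Log2 ratio (log2(FPKM + 1), ClpP siRNA minus GFP siRNA) of the 42 mitosis genes with a mean of at least 1 FPKM, in order of size (red points), each beside the 16th to 84th percentile of the 500 genes nearest to it in mean FPKM (grey bars). The dashed line marks 2-fold, and 39 of the 42 points lie above their bar, all but Mad2l1, Bub3 and Cks1b.

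Compared with the 500 genes closest to each in mean FPKM, 39 of the 42 genes lay above the 84th percentile of those genes' log2 ratios, which ranged from 0.33 to 0.62. The gene with the highest ratio, Ccnb2, ranked 109th of 11087, and 36 of the 42 ranked within the first 1000. Ratios were smaller among the abundant genes of the set. The 38 genes with a mean from 1 to below 10 FPKM had a median log2 ratio of 1.37 and 30 past 2-fold, where 5.48% of all genes in that range were higher by that much and 2.35% lower, and the 4 above 10 FPKM had a median of 0.41 and 1 past 2-fold. Near the 2-fold limit, 6 genes had log2 ratios within 0.1 of it. The 4 genes with a mean below 1 FPKM (Bub1, Espl1, Cenpe and Cenpf) had FPKM ratios from 4.32 to 6.52, all above 2, where 19.4% of all genes with a mean below 1 FPKM were. Nuf2, with a mean of 1.25 FPKM, was nearest above that limit and Espl1, with 0.841 FPKM, nearest below.

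Related genes were listed by function. Of 38 further genes of the spindle and of mitotic entry, 26 passed the filter, with a median log2 ratio of 0.89, 8 at least 2-fold higher and 1 lower. Of those 8, 7 lay below 1 FPKM in the control and passed through the ClpP siRNA library, Nek2, Dlgap5 and Hmmr among them. Filtered on the GFP siRNA library alone, the list kept 14 genes with a median of 0.30. Of these 14, 1 gene, Tacc3, was at least 2-fold higher (7.14%), where 4.04% of all genes so filtered were. Without a filter, 34 of the 38 lay above 0, as did 6944 of all 14339 genes, and the list's median was 0.59. Of the 12 genes below the filter on the mean, Kif18a, Fam64a and Bora had plain FPKM ratios short of 2. The others of those 12 had plain ratios above 2, up to 4.84 for Cdc25c. Under the filter on the mean, the largest ratios were those of Nek2 (1.66), a centrosome kinase, Tacc3 (1.56), a spindle protein, Dlgap5 (1.51) and Hmmr (1.49), which act on spindle microtubules. Stmn1, which destabilises microtubules, was the 1 gene past 2-fold lower (-1.36, from 91.3 to 34.9 FPKM) and was named after its values were seen. Of 33 further kinetochore and checkpoint genes, 23 passed, with a median of 0.37, 20 above 0 and 0 past 2-fold in either direction. Their largest ratios were those of Oip5 (0.97), a centromere loading factor, Spc25 (0.88) and Spc24 (0.87), subunits of the NDC80 complex, and Zwilch (0.88). As plain FPKM ratios these were 3.43 for Oip5, 2.15 for Spc25, 2.57 for Spc24 and 2.54 for Zwilch. The 10 kinetochore and checkpoint genes below the filter all had plain FPKM ratios past 2-fold, from 2.23 to 12.6. Of all genes with a mean below 1 FPKM, 19.4% did. Subunits and regulators of the anaphase-promoting complex had a median of -0.04 over 17 genes with 0 past 2-fold. Among them Fbxo5 (EMI1), its inhibitor, had the largest ratio at 0.58, then Anapc15 (0.46), Anapc4 (-0.44) and Cdc16 (-0.43). Cohesin and its regulators had a median of -0.09 over 15 genes that passed. The 2 past 2-fold were Esco2 (1.45), an acetyltransferase of cohesin in S phase, and Cdca5 (1.28), sororin, which protects cohesion, and next came Sgo2a (0.64) and Stag1 (-0.47). Esco2 (0.561 FPKM) and Cdca5 (0.878 FPKM) both lay below 1 FPKM in the control, and 0 of the 12 cohesin genes at or above 1 FPKM there were past 2-fold.

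The G1/S and DNA replication genes had a median log2 ratio of 0.46 over 53 of 56 genes. Of the 53, 50 lay above 0, against 49.3% of all genes. At least 2-fold higher were 7 (13.2%), where 5.19% of all genes were, and 0 were at least 2-fold lower. Of those 7, 2 lay below 1 FPKM in the control. The filter on the GFP siRNA library alone left 5 of 47 (10.6%), where 4.04% of all genes so filtered were at least 2-fold higher. Tk1 (1.97), a thymidine kinase, Mcm5 (1.43), a helicase subunit, Uhrf1 (1.32), which maintains DNA methylation, and Cdc45 (1.15), a helicase partner below 1 FPKM in the control, had the largest. Ccne1 had 0.67 (4.10 to 7.13 FPKM) and Ccnd1, the cyclin of G1, had 0.03 (9.89 to 10.1 FPKM). Transcription regulators of the E2F, MuvB and Myb families had a median of -0.06 over 18 of 20 genes with 0 past 2-fold. E2f1 had 0.74 (3.78 to 7.0 FPKM), Mybl2, which encodes B-MYB, 0.73 (0.752 to 1.91 FPKM), Rb1 -0.50 and Lin37 0.49, and E2f8 had 0.27 (0.957 to 1.35 FPKM). Inhibitors of cyclin-dependent kinases and brakes on mitotic entry had a median of -0.01 over 14 of 16 genes with 0 past 2-fold. Cdkn2c had 0.93, Gadd45g 0.76, Cdkn1b -0.59 and Pkmyt1 0.50. Cdkn1a, which encodes p21, was abundant in both libraries, with 160 FPKM in the control and 134 after ClpP siRNA (-0.25). The lists share both libraries, and the difference between their medians was not tested.

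**Figure D4:**
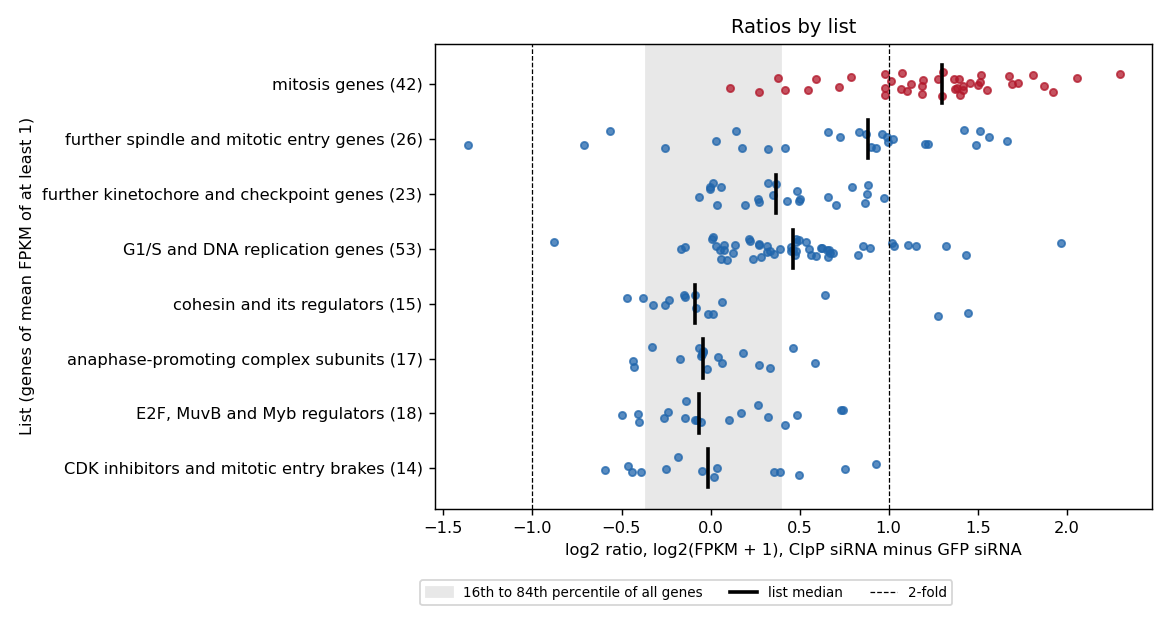
Log2 ratio of each gene with a mean of at least 1 FPKM in 8 cell-cycle lists (number of genes in brackets), with a black bar at each list's median, the 16th to 84th percentile of all genes shaded and dashed lines at 2-fold. The mitosis genes, with a median of 1.30, lie furthest right, and the medians of the last 4 lists lie between -0.09 and -0.01.

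Markers of several cell types also differed between the libraries. All 7 hepatocyte markers passed the filter, with a median of 1.08, 5 at least 2-fold higher and a summed level of 3308 FPKM in the control and 7133 after ClpP siRNA. Most of that sum was albumin, Alb (2952 and 6245 FPKM), and Cps1, of the urea cycle, had 3.15 and 27.8 FPKM, while Asgr1, a hepatocyte receptor, had 6.91 and 4.19 FPKM. Of 10 macrophage markers, 6 passed and 5 of those were below 0, while Cd68 had 24.9 and 226 FPKM and the summed level was 40.9 and 233 FPKM. Of 9 sinusoidal endothelial markers, 6 passed and 5 of those were below 0, and their summed level was 29.2 and 16.3 FPKM. The sum of 8 stellate cell and fibroblast markers was 35.2 and 15.97 FPKM, mostly Acta2 (26.5 and 9.47 FPKM), with 4 that passed. Of the others that passed, Col3a1 had 1.97 and 0.537 FPKM, while Col1a1 (2.69 and 2.72 FPKM) and Dcn (2.69 and 2.68 FPKM) were nearly level. That of 5 cholangiocyte markers was 1629 and 937 FPKM, mostly Spp1 (1605 and 870 FPKM), although Krt19 had 9.58 and 50.2 FPKM. Of 10 lymphocyte markers only Ptprc had a row, at 0.0817 and 0.0696 FPKM, of 4 neutrophil markers none had one, and of 4 erythroid markers only Alas2 had one, at 0.230 and 0.332 FPKM. The table lists only genes above 0 in both libraries. The part of cell composition in the higher mitosis genes was not tested.

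Reads shared with other genes limit some single values. In the GENCODE M21 annotation, used for neighbours only, exons of 10 of the 46 genes overlap those of another protein-coding gene, and in 6 the overlap covers more than 10% of the exon length (Kif20a with Cdc23, Ube2c with Tnnc2, Ccna2 with Exosc9, Ncapg with Lcorl, Prc1 with Rccd1 and Kif4 with Pdzd11). The library kit does not mark strand, so reads from such stretches cannot be told apart. Cdc23 had 6.14 and 5.94 FPKM, Exosc9 23.1 and 23.9, Lcorl 0.957 and 0.849, Rccd1 1.92 and 1.84, and Pdzd11 27.5 and 31.3 FPKM. As FPKM ratios these 5 partners differed by less than the gene they overlap, but in FPKM the difference in Pdzd11 was larger than that in Kif4. RefSeq also names copies of Ccnb1, Ccnb2, Cks1b, Kif22 and Kif4, and reads may be split between a gene and its copy.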

How the data were processed

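The authors deposited 1 table with a row per gene and 1 FPKM column per library, as the file headers name them. Further deposited columns hold log2 values, which quantile normalization of log2(FPKM + 1) recomputed here matches with a largest gap of 0.000581, and a score, the authors' signed fold change, which follows from those log2 values. STAR 2.4.0f1, TopHat2 2.0.13, Bowtie2 2.2.3, Trimmomatic 0.32, Cufflinks 2.2.1 and FastQC 0.10.0 are named, per the submitters' processing notes, without role or order. The genome build is not given in the sources used here. FPKM carries no read count, so no counting interval is given. The ClpP siRNA column was identified from an abbreviation in its header. Of 14346 rows, 7 without a gene name were dropped (0.0475% and 0.0335% of the FPKM totals). FPKM totals were 532302 with GFP siRNA and 535135 with ClpP siRNA.

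Log2 ratios used FPKM + 1, genes of mean FPKM of at least 1 and a 2-fold size rule (pandas 2.3.3). The ratio was also run on simulated data with known changes, as a check of the calculation only. Every one of the 46 genes is named. Of the other lists, the 4 genes with the largest ratios that passed and a few fixed regulators are named. From the further spindle list, Stmn1, Kif18a, Fam64a, Bora and Cdc25c were also named, outside this rule and for their values. The genes and lists were chosen with earlier results of these data known, so the higher cell-cycle genes seen before are not independent support.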

Additional observations from a re-analysis of the deposited data

How the results depend on the processing

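The higher mitosis genes were recomputed with other added constants, filters, scalings and a 1.5-fold size rule. All mitosis genes kept by each setting lay above 0, the lowest ratio being 0.05 for Cks1b after quantile normalization. With 5 FPKM added, at least 2-fold higher counts were 6 of 42 mitosis genes (31 with 1 FPKM added) and 327 of all genes (575), lower counts of all genes were 89 (226), and the medians were 0.61 for the mitosis genes (1.30) and 0.26 for G1/S and DNA replication genes (0.46); a larger constant shrinks ratios at low FPKM by construction. With 0.1 FPKM added, 357 of all genes were at least 2-fold lower. Keeping genes with a mean of at least 5 FPKM left 17 mitosis genes, 10 of them at least 2-fold higher, and 142 of all genes at least 2-fold lower; fewer genes were counted. The other 42 summary values kept their direction and stayed within 1.5 times. Of the single-gene values, 4 passed 2-fold with 0.1 FPKM added, 25 fell short of it with 5, and Ect2 fell short after quantile normalization. The filter on the GFP siRNA library alone was chosen after seeing the data. It took the further spindle list from 8 to 1 gene at least 2-fold higher (median 0.89 to 0.30) and cohesin from 2 to 0; genes below 1 FPKM in the control were dropped. No paired analysis was possible because each group had 1 library, and for the same reason no library could be left out.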
